A study of Mus musculus with 335 samples.

Results

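Mecom, the gene for the zinc finger transcription factor also known as EVI1, was followed across 4 groups of single cells sorted from mouse embryos at the AGM (aorta, gonads and mesonephros). It is 1 of the 13448 genes with a symbol in the deposited table of estimated counts. It was chosen because earlier results of these data showed it in the blood-forming cells and in part of the mesenchyme, so its levels are described here and not tested. All cells came from wild-type embryos at stage E11.5, and RNA of each cell was sequenced by Smart-seq2, a method that reads along the whole transcript. The groups were 65 EPCR+CD45+ cells (HSC), a gate that holds haematopoietic stem and progenitor cells, 88 Pdgfrb+Ngfr- cells (Mesenchymal), 93 Ngfr+Pdgfrb- cells taken dorsal to the aorta (Dorsal) and 89 Ngfr+Pdgfrb- cells taken ventral to it (Ventral). A group was sequenced as 1 pool, and no embryo or litter is named in the labels. A group therefore counted as 1 sample, no test was possible, and a difference between groups cannot be told apart from a difference between pools.

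Mecom protein binds DNA through zinc fingers and recruits corepressors and chromatin enzymes. The gene is known for a role in the self-renewal of long-term haematopoietic stem cells in the mouse, and for its activation by chromosome rearrangement in human myeloid leukaemia. It is also expressed outside blood, in endothelium and in several embryonic mesenchymes and tubules. Transcription from separate start sites gives a long form with an N-terminal PR domain (MDS1-EVI1) and a short form without it (EVI1).

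In the GENCODE M21 annotation of build GRCm38, Mecom lies on the minus strand of chromosome 3 from 29951296 to 30548008, a span of 596713 bases with 17 transcripts, of which 11 are coding (ENSMUSG00000027684.16). RefSeq places a pair of start sites 496555 bases apart. The 250 bases before each start are shown because the deposited table has a single Mecom entry, so that the long and short forms could not be separated. Which transcripts that entry sums is not given in the sources used here. Both lines are 5′ to 3′ on the minus strand, from RefSeq on GRCm38.p6, and capitals mark GATAA or its reverse complement TTATC, the core that GATA factors bind.
Mecom, upstream start, chr3:30509760-30510009: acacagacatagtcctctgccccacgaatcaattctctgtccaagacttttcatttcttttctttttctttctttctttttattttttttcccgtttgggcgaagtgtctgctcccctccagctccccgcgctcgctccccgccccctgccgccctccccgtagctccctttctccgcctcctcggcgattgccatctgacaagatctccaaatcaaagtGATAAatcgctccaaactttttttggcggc
Mecom, downstream start, chr3:30013205-30013454: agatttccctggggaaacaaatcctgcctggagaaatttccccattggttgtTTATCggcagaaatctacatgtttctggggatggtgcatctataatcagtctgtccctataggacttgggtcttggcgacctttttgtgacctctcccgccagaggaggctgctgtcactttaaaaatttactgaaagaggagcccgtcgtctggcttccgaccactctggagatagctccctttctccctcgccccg
The upstream window has a GC content of 50.8% with 14 CpG dinucleotides, and the downstream window 50.4% with 8, against a median GC content of 52.4% over 32851 RefSeq windows of this length. GATAA begins at position -30 of the upstream window, and TTATC at position -198 of the downstream window. GATAA was found on either strand in 22.6% of all windows. The RUNX core TGTGGT (14.05% of all windows), the ETS core GGAAGT (19.7%) and the SOX core AACAAT (9.42%), searched on both strands, were absent from both Mecom windows. No motif searched overlapped another. These matches describe the letters only.

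Summed estimated counts were 82516453 in HSC, 68560755 in Mesenchymal, 108409099 in Dorsal and 110598792 in Ventral cells, and the median cell held 943772 counts in HSC, 505916 in Mesenchymal, 1033890 in Dorsal and 574689 in Ventral. The sort genes were found where the labels place them in most cells. Ptprc, which encodes CD45, had at least 5 counts in 60 of 65 HSC cells and 0 of 88 Mesenchymal cells. Pdgfrb did in 0 of 65 HSC and 70 of 88 Mesenchymal cells. Ngfr did in 81 of 93 Dorsal cells but 47 of 89 Ventral cells. The same pair of indices was used in all 4 pools for 55 pairs, in 3 pools for 33 and in 2 pools for 8. No cell was a copy of another within its group, since the largest correlation between cells was 0.743.

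Mecom was present in nearly every HSC cell, in a minority of Mesenchymal cells at levels that reach those of HSC cells, and in few Ngfr+ cells of either side. In CPM, estimated counts scaled to a cell total of 1000000, HSC cells had a lowest value of 0, a median of 106 and a highest of 754. Mesenchymal cells ran from 0 through a median of 1.55 to 571 CPM. Dorsal cells had a median of 0 and a highest value of 48.8 CPM, and Ventral cells a median of 0 and a highest value of 90.3 CPM. The middle of the HSC distribution, between its quartiles, lay between 53.1 and 185.7 CPM, and that of the Mesenchymal cells between 0 and 47.97 CPM. Mecom was at 0 in 2 of 65 HSC cells, 40 of 88 Mesenchymal cells, 79 of 93 Dorsal cells and 82 of 89 Ventral cells. At least 100 CPM was reached by 35 HSC cells, 12 Mesenchymal cells, 0 Dorsal cells and 0 Ventral cells.

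**Figure D1:**
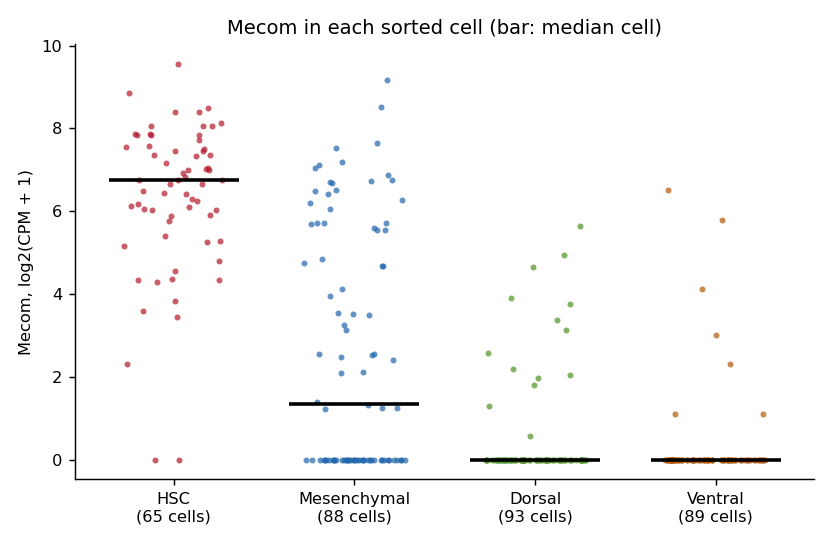
Mecom level in each sorted cell, as log2(CPM + 1) on the vertical axis, with 1 point per cell, cells grouped by sort and spread sideways for legibility, and a black bar at the median cell. HSC cells form a single broad cloud with 2 cells at 0, Mesenchymal cells divide between 40 cells at 0 and a spread up to 571 CPM, and most Dorsal and Ventral cells lie at 0.

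The HSC and Mesenchymal ranges overlapped, with the HSC group as a whole higher. A single HSC cell exceeded all Mesenchymal cells, and 9 of 88 Mesenchymal cells lay above the HSC median. Above all 93 Dorsal cells lay 49 of the 65 HSC cells and 22 of the 88 Mesenchymal cells. Above all 89 Ventral cells lay 35 HSC cells and 12 Mesenchymal cells.

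Depth differed between groups, so counts of every cell were drawn down to 310000 before cells with Mecom were counted. At least 5 Mecom counts were then found in 59 of 64 HSC cells, or 92.2% (95% Clopper-Pearson limits 82.7 to 97.4%). In Mesenchymal cells the share was 34.8% (24 of 69, limits 23.7 to 47.2%). It was 3.26% in Dorsal cells (3 of 92, limits 0.678 to 9.23%) and 3.75% in Ventral cells (3 of 80, limits 0.780 to 10.6%). The Mesenchymal share lay between the HSC share and the shares of both Ngfr+ groups. The limits on shares treat the cells of a pool as independent draws. No limit given here covers differences between pools or embryos, so the shares are a description. Without thinning, the shares were 96.9% in HSC, 38.6% in Mesenchymal, 9.68% in Dorsal and 3.37% in Ventral cells. Of the cells below that depth, 1 HSC, 19 Mesenchymal, 1 Dorsal and 9 Ventral cells were left out.

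Summed over the cells of a group, Mecom reached 138.6 CPM in HSC (exact Poisson 95% limits 136.1 to 141.2) and 80.3 CPM in Mesenchymal cells (78.1 to 82.4). It reached 1.90 CPM in Dorsal cells (1.65 to 2.18) and 0.817 CPM in Ventral cells (0.657 to 1.004). In the pools, fewer cells with Mecom and less Mecom per cell cannot be told apart from these sums, and the values per cell given above separate them in part. A single cell carried much of each sum. In Dorsal cells, Dorsal 86 held 35.9% of the Mecom counts and 1.40% of all counts. In Ventral cells, Ventral 46 held 44.7% of the Mecom counts and 0.404% of all counts. In HSC and Mesenchymal cells it was a deep cell. The cell Mesenchymal 22, with 571 CPM and 6200804 counts, held 64.3% of the Mecom counts of its group and 9.04% of all counts of its pool, and without it the Mesenchymal value was 31.5 CPM. The cell HSC 12, with 754 CPM, held 24.7% of the HSC Mecom counts, and without it the HSC value was 109.4 CPM. Averaged over cells with equal weight, Mecom was at 135 CPM in HSC, 37.6 CPM in Mesenchymal, 1.78 CPM in Dorsal and 1.96 CPM in Ventral cells.

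The difference between HSC and Mesenchymal cells depended on how cells were weighted, while both stood far above the Ngfr+ groups under each weighting. On the scale of log2(CPM + 1), HSC exceeded Mesenchymal cells by 0.78, a CPM ratio of 1.73 (limits 1.67 to 1.78), so Mecom was not among the 16.6% of 12758 genes at least 2-fold higher in HSC. With cells weighted equally the difference was 1.82, and without the highest cell of each group 1.76, both past 2-fold. HSC exceeded Dorsal cells by 5.59, with 11.3% of 13123 genes at least 2-fold higher there and Mecom at place 42 in order of fold. HSC exceeded Ventral cells by 6.26, with 14.1% of 13104 genes at least 2-fold higher and Mecom at place 16.

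Mesenchymal cells exceeded Dorsal cells by 4.81 on the same scale, or 3.86 without the highest cell of each group, with 9.68% of 13114 genes at least 2-fold higher and Mecom at place 45. They exceeded Ventral cells by 5.48, or 4.48 without the highest cells, with 12.9% of 13065 genes at least 2-fold higher and Mecom at place 15. Dorsal cells were 0.68 above Ventral cells by summed counts, a CPM ratio of 2.33 (limits 1.80 to 2.99), where 10.1% of 13152 genes were at least 2-fold higher and 8.3% lower. With cells weighted equally that difference was -0.091, so the order of the Ngfr+ groups was not settled. The order HSC, Mesenchymal, then both Ngfr+ groups held with summed and with equally weighted cells. Since Mecom was chosen for this pattern, the places and folds are a description.

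**Figure D2:**
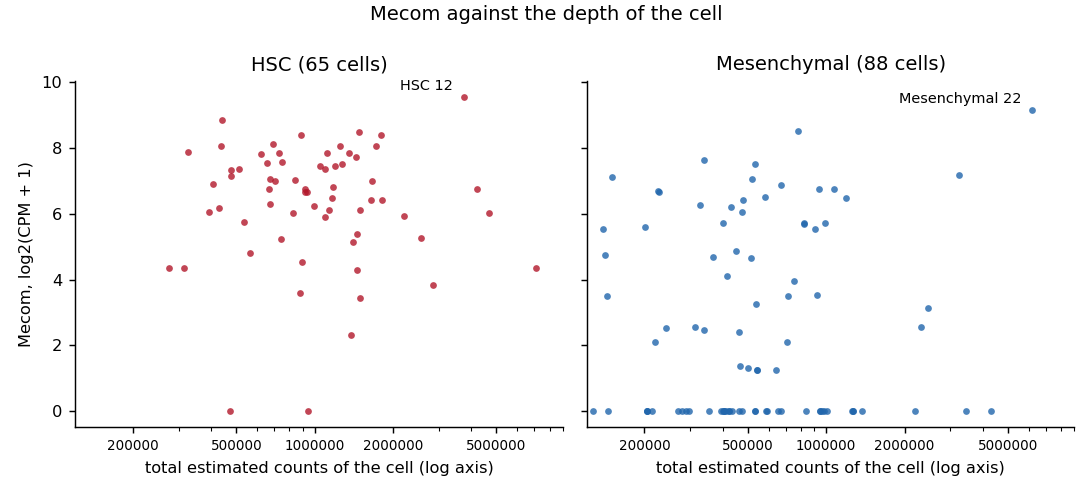
Mecom as log2(CPM + 1) on the vertical axis against the total estimated counts of the cell on a log axis, for HSC cells at left and Mesenchymal cells at right, with 1 point per cell and the cell with the most Mecom counts named. Cells at 0 and cells with high Mecom occur across the whole range of depth in the Mesenchymal panel.

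Mecom level and depth were nearly unrelated across cells. The Spearman correlation (rho) of Mecom with the total count was -0.07 over 65 HSC cells and 0.03 over 88 Mesenchymal cells. With the number of detected genes it was 0.17 in HSC and 0.23 in Mesenchymal cells, and with the mitochondrial share of counts -0.04 in HSC and -0.24 in Mesenchymal cells. Wells that share an index with Mesenchymal 22 held Mecom at 5 counts or more in 37.5% (6 of 16), against 38.03% (27 of 71) of the other Mesenchymal wells. In HSC cells the median by i7 index was lowest at N701 (19.3 CPM, 7 wells), followed by N706 (50.8 CPM, 4 wells), while N702 (113.4 CPM, 4 wells) was near the middle. The HSC cells at 0 were HSC 5 with index N701 and HSC 9 with index N702. These 11 wells of N701 and N702 were singled out after the values were seen. The numbers of correlated genes, the endothelial, matrix and stem cell lists and the HSC level are given below without both indices and without N701 alone. Correlations of single genes are not given that way.

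Most HSC cells carried blood and endothelial genes, with or without Mecom. Of the 63 HSC cells with at least 5 Mecom counts, 59 had Ptprc, against 60 of all 65. Runx1, the transcription factor required for blood stem cell emergence, was in 61 of the 63, against 63 of the 65, and Spi1, a factor of myeloid and stem cells, in every HSC cell. The endothelial cadherin gene Cdh5 was found in 57 of the 63, against 59 of the 65, and the endothelial receptor gene Tie1 in 60, against 62. With 63 of 65 cells holding Mecom, these counts are those of the group. Pdgfrb, Ngfr and the neural crest factor gene Sox10 reached 5 counts in 0 of 65 HSC cells, which allows a share of up to 4.62% by 3 cells of the total, or 5.52% by the Clopper-Pearson limit.

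Without thinning, the Mesenchymal cells with Mecom had shares of Pdgfrb and Acta2 near those of the whole group, which includes them. Their share of Cd34 was larger. Of the 34 such cells, 27 (79.4%) had Pdgfrb, against 79.5% of all 88 cells. The smooth muscle actin gene Acta2 was in 21 (61.8%), against 60.2% of all, and Cxcl12, a chemokine that retains stem cells in their niche, was in every Mesenchymal cell. Ptprc, Spi1, Gfi1, Cdh5 and Tie1 reached 5 counts in 0 of all 88 Mesenchymal cells, which allows a share of up to 3.41% by 3 cells of the total, or 4.11% by the Clopper-Pearson limit. Other genes of blood cells were present, some of them also known outside blood. The stem cell factor receptor gene Kit was in 23 of the 34 and 57 of the 88, Runx1 in 5 and 13, Myb in 3 and 8, and Csf1r in 3 and 4. Cd34 was in 12 of the 34 (35.3%), against 20 of the 88 (22.7%). At equal depth Cd34 was in 15.9% of Mesenchymal cells (11 of 69), and its share among cells with Mecom was not computed there. The tubule marker Epcam was found in 0 of the 34 cells and in 2 of all 88. Pax8, a mesonephric factor, had at least 5 counts in every cell of the series, as did 312 genes in all, so it could not mark a tubule origin.

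Among the Ngfr+ cells, the few with Mecom were of more than 1 kind. Of the 9 Dorsal cells with at least 5 Mecom counts, Dorsal 1 and Dorsal 36 carried Ptprc (163 and 1010 counts) and the macrophage receptor gene Csf1r (1767 and 7723 counts). The other 7 carried the neural crest gene Sox10, among them Dorsal 86, which had 74.04 Mecom counts with 525 Sox10 counts. These markers were not exclusive, since some crossed between the cells at lower counts. Dorsal 36 also had 14.7 counts of Sox10, and Dorsal 1 had 9.88 of Cdh5 and 14.3 of Tie1. Among the 7, Dorsal 86 had 23.02 counts of Csf1r and Dorsal 64 had 7.42, while the rest had fewer than 5. Among the 3 Ventral cells, Ventral 57 had 206 counts of Cdh5 and 513 of Tie1, while Ventral 46 had 0 of both.

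Across all cells of the 4 groups, the genes whose levels ran most like Mecom were found in more HSC cells than in cells of any other group. Of 11029 genes with at least 5 counts in 10% of cells, the 10 highest by the naming rule were Myct1 (rho 0.67), Pdzk1ip1 (0.64), Mmrn1 (0.64), Cdh5 (0.64), Esam (0.63), Adgrl4 (0.63), Procr (0.62), Tek (0.62), F5 (0.61) and Ifitm3 (0.61). Myct1 had at least 5 counts in 63 HSC, 1 Mesenchymal, 0 Dorsal and 0 Ventral cells, and Pdzk1ip1 in 55 HSC, 0 Mesenchymal, 0 Dorsal and 1 Ventral cells. Such a value spans 4 groups that differ in both genes. Within HSC cells alone, rho was 0.11 for Myct1, -0.10 for Mmrn1 and -0.01 for Adgrl4, while Procr kept 0.45 and Cdh5 0.35.

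Within HSC cells, the genes that ran highest with Mecom included Mmp2, Cdc42bpa, Pacs2 and Col4a1. Of 8208 genes with at least 5 counts in 25% of the cells, 180 (2.19%) had a rho of at least 0.3 with Mecom and 30 (0.365%) a rho of at most -0.3, and the median rho was 0.04. The points share a pool and its depth, so these correlations are a description of 65 cells. The 12 highest by the naming rule ran between 0.42 and 0.51.

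The highest was Mmp2, a secreted protease that cleaves basement membrane collagen, with rho 0.51. Mmp2 ran from 0 in 14 HSC cells through a median of 29.1 to a highest value of 384 CPM. Both HSC cells without Mecom had 0 CPM of Mmp2, while HSC 12, the cell highest in Mecom, had 296 CPM. Col4a1, a collagen IV chain of basement membranes, had rho 0.49 and ran from 0 through a median of 136 to 1067 CPM. It was at 432.6 CPM in HSC 12, against 9.10 CPM in HSC 5 and 0 in HSC 9. Hspg2, the basement membrane proteoglycan perlecan, had rho 0.42.

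Ramp2, Nrp1 and Procr encode proteins of the cell surface. Ramp2, which pairs with the receptor for adrenomedullin, had rho 0.48, with a median of 118 and a highest value of 1585 CPM. Nrp1, a co-receptor for semaphorins and VEGF, had rho 0.42. Procr, which encodes the sort antigen EPCR, had rho 0.45 and ran from 0 in 3 cells through a median of 125 to 1193 CPM. Within the EPCR+ gate, cells low in Procr were by rank lower in Mecom as well.

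The others of the 12 were of mixed function. Cdc42bpa, a kinase that acts on the actin skeleton below Cdc42, had rho 0.50. Pacs2, a sorting protein of the secretory pathway, had 0.49, Wdr6, a partner in tRNA methylation, 0.46, Zdhhc18, a palmitoyltransferase, 0.45, Magohb, of the exon junction complex, 0.45, and Tmem35b 0.42. All 12 kept a positive sign among wells with an odd i7 index and among the others, as the naming rule requires.

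**Figure D3:**
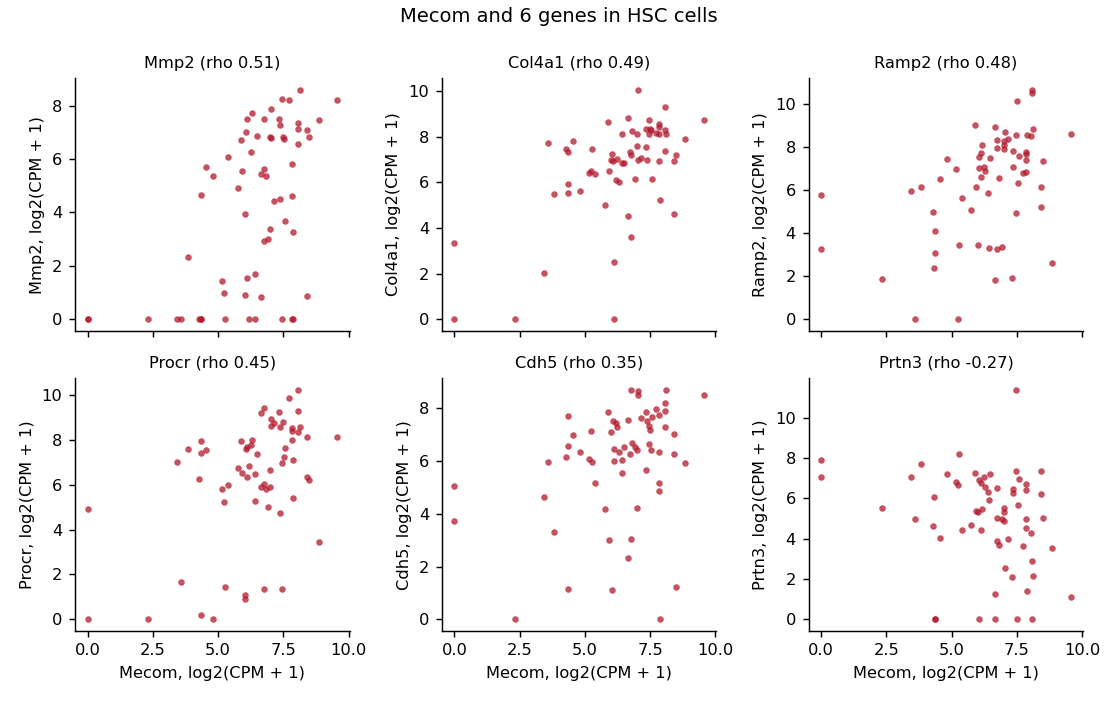
Level of 6 genes on the vertical axes against Mecom on the horizontal axes, both as log2(CPM + 1), in 65 HSC cells, with 1 point per cell and rho with Mecom above each panel. Mmp2, Col4a1, Ramp2, Procr and Cdh5 tend to be higher where Mecom is higher, with wide scatter, and some cells low in Mecom hold much Procr, Col4a1 or Cdh5, while Prtn3 runs the other way (rho -0.27).

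As groups, the endothelial and the extracellular matrix genes ran with Mecom in HSC cells. The medians of the blood factors (0.06), myeloid genes (-0.03) and cell cycle genes (-0.002) lay nearer that of all genes (0.04). Of all 8208 genes, 2.19% had a rho of at least 0.3. Of 21 endothelial genes measured, 9 had a rho of at least 0.3 and 0 of at most -0.3, and the list's median was 0.24, against 0.04 over all genes. A rho above 0 was found for 20 of the 21. They were led by Ramp2 (0.48), Ecscr (0.37), an endothelial cell surface regulator, Plvap (0.36), of the diaphragms of fenestrae and caveolae, and Cdh5 (0.35). The arterial genes Efnb2 (0.32) and Gja5 (0.30) were among the 9, while the arterial factor Sox17 had 0.11 and Emcn, a venous and capillary marker, -0.06. Summed over the 26 list genes, the endothelial level ran from 132 through a median of 1783 to 5773 CPM per HSC cell, and its rho with Mecom was 0.46.

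The extracellular matrix list had 7 members past the minimum of cells, with 5 at 0.3 or more and a median of 0.37. With no minimum of cells, 17 members had a value, 5 of them at 0.3 or more, and the median was 0.16. These 5 were Col4a1 (0.49), Col4a2 (0.40), Lamb1 (0.40), a laminin chain, Fn1 (0.37), fibronectin, and Sparc (0.36), a collagen-binding protein. Lamc1, the laminin gamma chain, had 0.16 and Fbln1, a fibulin of elastic fibres and basement membranes, 0.02. Without the 11 wells of i7 index N701 and N702, 1 of the 7 matrix genes and 4 of the 21 endothelial genes kept a rho of at least 0.3. The list medians were then 0.28 and 0.21, against 0.01 over all genes, so part of the count rests on these wells while both medians stayed above the median of all genes. Without N701 alone, 4 matrix and 4 endothelial genes kept a rho of at least 0.3. Among the 31 cells with odd i7 the counts were 5 matrix and 7 endothelial genes, and among the 34 with even i7 they were 5 and 10.

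Of the 25 measured genes of the stem cell signature, 4 had a rho of at least 0.3 and the median was 0.16. Without i7 N701 and N702 the median was 0.09, against 0.01 over all genes. Without N701 alone it was 0.10, against 0.02. With all wells, the 4 were Procr (0.45), Vwf (0.34), the clotting factor of endothelium and platelet-biased stem cells, Mllt3 (0.34), a factor of stem cell maintenance, and Tek (0.31), the angiopoietin receptor. Tek is also counted in the endothelial list, and Esam is a member of both lists. The cell cycle inhibitor Cdkn1c had 0.29. Other signature genes did not run with Mecom, such as Cd34 (-0.21) and Angpt1 (-0.19).

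Of 24 haematopoietic transcription factors measured, 2 (8.33%) had a rho of at least 0.3, against 2.19% of all genes. Bcl11a (0.32), a zinc finger repressor, was among them. Runx1 and Gata2, both central to stem cell emergence, each had -0.04, and Tal1 also -0.04. Of 11 genes described as regulated by Mecom, 1 reached 0.3, with Cdkn1c at 0.29 and Gata2 at -0.04. In the TGF-beta pathway, which Mecom is known to repress through Smad3, 1 of 14 reached 0.3, Ltbp1 (0.33), which binds latent TGF-beta. The inhibitory Smad7 had 0.29, Smad6 0.26 and Smad3 itself 0.12. Of 5 retinoid genes 1 did, Dhrs3 (0.30), a retinal reductase. All 5 had a rho above 0, with a median of 0.21. In lists this short, 1 member does not set a list apart from the share of all genes.

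None of the 9 myeloid priming genes reached 0.3 in either direction, with a median of -0.03 and the neutrophil protease gene Prtn3 lowest at -0.27. None of the 25 cell cycle genes did, with a median of 0.00 and Ccnb1 highest at 0.24. The 5 lymphoid genes had a median of -0.09 and the 4 erythroid and megakaryocyte genes a median of 0.17, also with none at 0.3. With 2.19% of all genes at 0.3 or more, lists of this size can hold none. These counts do not set the lists apart from all genes.

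**Figure D4:**
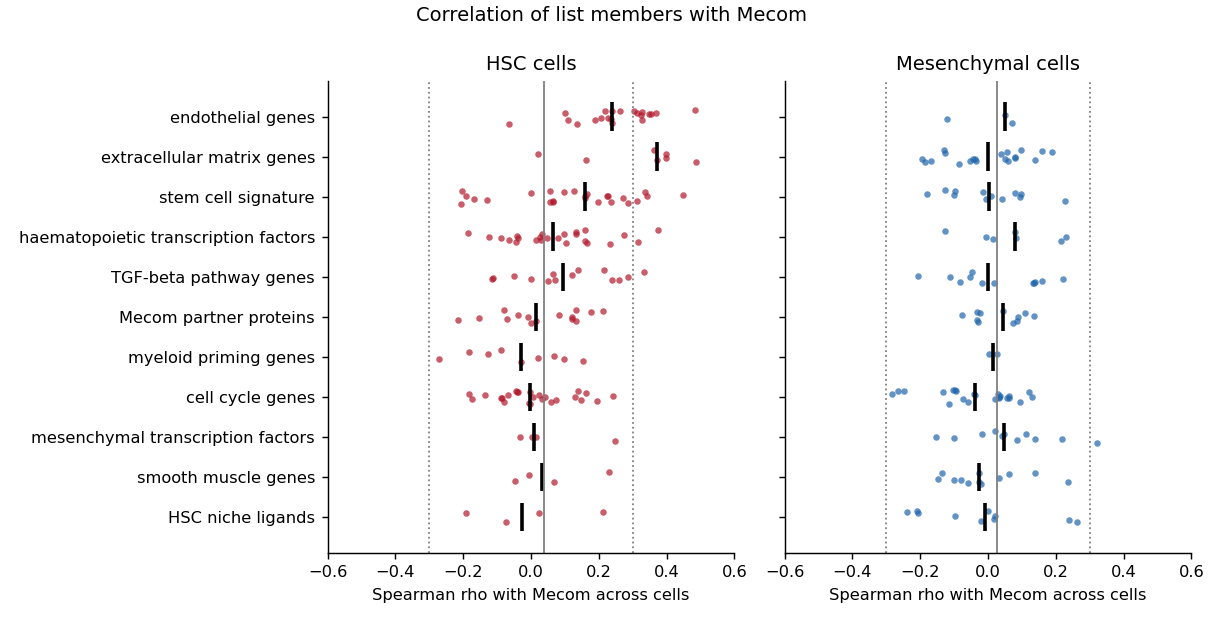
Spearman rho with Mecom for each measured member of 11 gene lists, across 65 HSC cells at left and 88 Mesenchymal cells at right. Points are genes, black bars the list medians, the grey line the median over all genes tested and dotted lines 0.3 and -0.3. The endothelial (median 0.24) and extracellular matrix (median 0.37) lists lie to the right of the grey line in HSC cells, and no list does so to that extent in Mesenchymal cells.

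Genes that ran opposite to Mecom in HSC cells formed no listed group. The 12 lowest by the naming rule ran from Mrpl52 (rho -0.46), a protein of the mitochondrial ribosome, to Nars2 (-0.35), a mitochondrial tRNA synthetase. Mrpl52 ran from 0 through a median of 26.3 to 98.7 CPM. Between them were Anapc7 (-0.43), a subunit of the anaphase-promoting complex, Slco4a1 (-0.40), an organic anion transporter, Lxn (-0.39), a carboxypeptidase inhibitor described as a limit on stem cell number in the mouse, and the lysosomal enzyme gene Gusb (-0.39). Frg1, Uimc1, Morc3, Lst1, Psmb8 and Klhdc2 lay between -0.38 and -0.35. Psmb8 is a catalytic subunit of the immunoproteasome and Lst1 a leukocyte protein. Without the i7 N701 and N702 wells, 91 genes lay at -0.3 or lower, against 30 with them.

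Within Mesenchymal cells fewer genes ran with Mecom, and no list had more than 1 member at 0.3. Of 7696 genes, 44 (0.572%) had a rho of at least 0.3 and 13 (0.169%) of at most -0.3, with a median of 0.03. Since 40 of 88 cells were tied at 0, these values are given without weight on any of them. The highest by the naming rule was Ppp2r2d (0.43), a regulatory subunit of phosphatase PP2A, which ran from 0 through a median of 27.3 to 237 CPM. It was followed by Lars2 (0.41), a mitochondrial tRNA synthetase, Ei24 (0.39), Ugcg (0.37), the glucosylceramide synthase, Mta1 (0.37), of a deacetylase complex, and Zwint (0.37), a kinetochore protein. Tmem2, Gak, Slk, Tpst2, Eva1b and Slc38a2 had values between 0.36 and 0.34.

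The 12 lowest by the naming rule in Mesenchymal cells were of mixed function. Bambi, a pseudoreceptor that blocks TGF-beta and BMP signals, had rho -0.39 and ran from 0 in 15 cells through a median of 95.2 to 557 CPM. Sfrp1, a secreted Wnt antagonist, had -0.38, with a median of 116 and a highest value of 917 CPM. Hlx, a homeobox factor of visceral mesenchyme, had -0.34. Mcc (-0.38) and Gas7 (-0.37), with Golph3, Esf1, Ankle2, Fbxw17, Nenf, Kdelr2 and Rnf114, made up the 12. Lars2, Mcc and Gas7 had at least 5 counts in every cell of the series, and whether their counts are specific to these genes could not be settled from the deposited values.

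Of 11 measured mesenchymal transcription factors 1 reached 0.3, Prrx1 (0.32), a homeobox factor of embryonic mesenchyme. None of 20 matrix genes (median 0.00), 12 smooth muscle genes (median -0.03), 6 pericyte genes (median -0.05) or 8 coelomic and mesonephric factors (median -0.07) reached 0.3 in either direction. Of all genes, 0.572% reached 0.3 and 0.169% reached -0.3, so these counts do not set the lists apart. Among 10 niche ligands the values lay between 0.26 for Igf2 and -0.24 for Ptn, with Cxcl12 at 0.24. The summed endothelial level, which ran with Mecom in HSC cells, had a rho of -0.03 in Mesenchymal cells, and the summed matrix level -0.12, against 0.53 in HSC cells. In Mesenchymal cells 6 of the 26 endothelial genes were at 0 and the median sum was 177 CPM, against 1783 CPM in HSC cells. The endothelial values are therefore of unlike sums, and little relation could appear in Mesenchymal cells. The matrix sums were unlike too, with a median of 865 CPM in HSC and 4902 CPM in Mesenchymal cells. Of the 24 matrix genes, 4 were at 0 in HSC and 0 in Mesenchymal cells.

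A single gene ran with Mecom in both groups. Of 6751 genes tested in both, 133 (1.97%) in HSC and 38 (0.563%) in Mesenchymal cells had a rho of at least 0.3. Snhg11, a long noncoding RNA, was in both sets (0.41 in HSC and 0.31 in Mesenchymal cells), which is 0.752% of the HSC set and 2.63% of the Mesenchymal set. Of 25 low genes in HSC and 12 in Mesenchymal cells, 0 were shared. With shares this small, the overlap does not show that the groups differ.

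Mecom and Prdm16 are close paralogues, and Prdm16 too was found in the largest share of cells in HSC. Prdm16 summed to 24.8 CPM in HSC, 24.1 in Mesenchymal, 6.55 in Dorsal and 3.21 in Ventral cells. It had at least 5 counts in 32 of 65 HSC, 19 of 88 Mesenchymal, 13 of 93 Dorsal and 3 of 89 Ventral cells, where 1 Ventral cell held 79.9% of the counts of its group. At equal depth the shares were 39.1% in HSC, 17.4% in Mesenchymal (limits 9.32 to 28.4%), 11.96% in Dorsal (6.12 to 20.4%) and 2.5% in Ventral cells, so Mesenchymal and Dorsal cells overlapped by their limits. All 32 HSC cells with Prdm16 also had Mecom, in a group where 63 of 65 cells did. Without thinning, 12 of the 19 Mesenchymal cells with Prdm16 had Mecom, against 34 of all 88. Within HSC cells the rho of Prdm16 with Mecom was 0.20, or 0.05 in odd-index cells and 0.35 in even-index ones.

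Other PR domain genes had patterns of their own. Prdm6, a repressor of smooth muscle genes, had at least 5 counts in 0 of 65 HSC, 48 of 88 Mesenchymal, 0 of 93 Dorsal and 4 of 89 Ventral cells, and its rho with Mecom in Mesenchymal cells was 0.14. Prdm1, a repressor of B cell and germ cell programmes, had 5 counts in 4 HSC, 0 Mesenchymal, 1 Dorsal and 4 Ventral cells. Prdm2 was broad, with summed values of 25.7 CPM in HSC, 29.03 in Mesenchymal, 33.5 in Dorsal and 26.9 in Ventral cells. Prdm11 stood at 51.9 CPM in Ventral cells, but 1 cell held 86.9% of that sum. Of 9 relatives measured, HSC cells had 2 at least 2-fold higher and 1 lower than Mesenchymal cells, where 16.6% of all genes were higher and 22.6% lower.

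**Figure D5:**
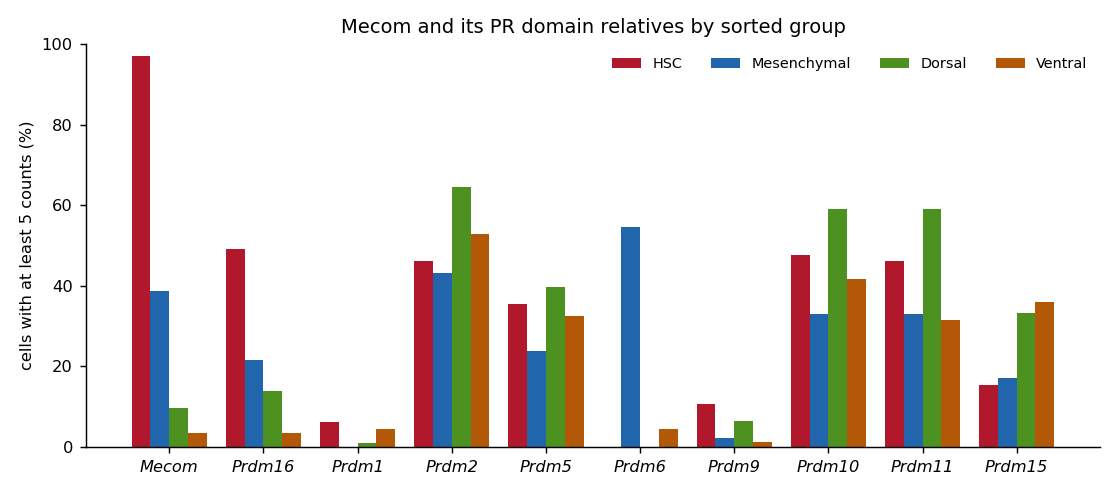
Percent of cells with at least 5 estimated counts, without thinning, for Mecom and 9 PR domain relatives on the horizontal axis, with bars by sorted group in the order HSC, Mesenchymal, Dorsal, Ventral. Mecom reaches 96.9% of HSC and 38.6% of Mesenchymal cells, Prdm16 49.2% and 21.6%, and Prdm6 0% and 54.5%.

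The partners of Mecom protein were mostly present in all groups. Of 15 measured, HSC cells had 4 at least 2-fold higher and 1 lower than Mesenchymal cells, where 16.6% of all genes were higher and 22.6% lower. Those higher were the blood factors Spi1 and Runx1, the de novo methyltransferase Dnmt3b and the acetyltransferase Kat2b. Spi1 was at 257 CPM in HSC, 0 in Mesenchymal, 46.9 in Dorsal and 32.8 in Ventral cells. Runx1 was at 193 CPM in HSC, 7.80 in Mesenchymal, 13.9 in Dorsal and 16.3 in Ventral cells. Dnmt3b was at 184 CPM in HSC, 21.8 in Mesenchymal, 23.3 in Dorsal and 13.9 in Ventral cells. Ctbp1, the corepressor that Mecom binds, was the lower, at 74.2 CPM in HSC, 153 in Mesenchymal, 188 in Dorsal and 135 in Ventral cells, while its paralogue Ctbp2 differed by 0.00 on the log2(CPM + 1) scale between HSC and Mesenchymal cells. None of the 15 had a rho of 0.3 or more with Mecom in HSC cells, where 2.19% of all genes did. The range ran from Suv39h1 (-0.21) to Ehmt2 (0.21), both histone H3 lysine methyltransferases.

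Genes beside Mecom on chromosome 3 differed in pattern. Of 9 neighbours measured with starts within 1 Mb, HSC cells had 2 at least 2-fold higher and 2 lower than Mesenchymal cells, against the same 16.6% and 22.6% of all genes. Compared with Dorsal cells, 1 of 10 was higher and 3 lower in HSC, where 11.3% of all genes were higher and 25.3% lower, so these counts are near those of all genes. Lrrc34, the start of which lies 99861 bases from that of Mecom, was at 17.2 CPM in HSC, 2.08 in Mesenchymal, 2.58 in Dorsal and 2.25 in Ventral cells. Prkci, an atypical protein kinase C, ran the other way, at 16.3 CPM in HSC, 59.8 in Mesenchymal, 33.3 in Dorsal and 32.5 in Ventral cells. The nearest measured neighbour, Mynn, was at 32.9 CPM in HSC, 29.4 in Mesenchymal, 23.9 in Dorsal and 20.8 in Ventral cells.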

How the data were processed

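Single cells were sorted into lysis buffer and sequenced by Smart-seq2, per the labels' protocols. The authors deposited estimated counts per gene, made with kallisto 0.43.1 on GRCm38 per the submitters' processing notes, and a table of log2 values, which equal log2 of 1 plus the estimated count divided by a factor per cell, as a comparison of both deposited tables showed. The annotation, and how transcripts were summed to genes, are not given in the sources used here. Estimated counts were used unrounded in every value, and the deposited log2 values in 1 alternative. Of 14109 entries, 661 carry no symbol and hold 2.96% of counts, and these were left out of totals.

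CPM, counts scaled to a total of 1000000, were computed here over genes with a symbol. A group's value is the sum over its cells, with exact Poisson limits. Differences are of log2(CPM + 1), for genes with at least 100 counts over both groups. Every cell is a sample in the labels and each group 1 pool, so no test, p-value or SE was computed. Shares use cells thinned to 310000 counts, set from the 10th percentile of cell totals. Spearman correlations across the cells of 1 group use genes with at least 5 counts in 25% of cells. Depth per cell ran from 126979 to 20481041 counts, and a gene under 5 counts in a cell was not taken as present. Doublets were not called, because the protocols describe sorting of single cells. Whether a well held more than 1 cell was not tested.

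Mecom, the 21 gene lists and the tests were chosen with earlier results of these data known. The rule for named genes takes, in HSC and in Mesenchymal cells, the 12 highest and 12 lowest correlations with the same sign in odd-i7 cells, in even-i7 cells and given total count and detected genes, the 10 highest over all cells, and 2 to 4 members of a list with the largest value. All PR domain relatives and partner proteins, and genes with a start within 1 Mb, may also be named. Other members named for a contrast, and Snhg11, were chosen after their values were seen. Some list members are not reported here by name. Mitochondrially encoded genes, pseudogenes and unnamed loci were left out. Coordinates are from GENCODE M21 and start windows from RefSeq GRCm38.p6. Scripts used Python 3.11.15, numpy 2.4.6, scipy 1.17.1 and pandas 2.3.3 and were tested on simulated data.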

Additional observations from a re-analysis of the deposited data

How the results depend on the processing

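All limits cover only counting error or the drawing of cells within a pool, each group is 1 pool, and nothing separates embryos. Above the Ngfr+ groups, HSC and Mesenchymal cells kept their direction for Mecom under each of the 6 alternatives. HSC over Mesenchymal ran from 0.37 in odd-index cells to 2.20 in even-index ones, with 1.82 for equally weighted cells, 1.99 without the deepest 5% of cells of each group and 1.76 without the highest Mecom cells. HSC over Dorsal was 5.33 without the deepest cells, 5.94 in odd-index cells and 5.32 in even-index ones. HSC over Ventral was 5.52 for equally weighted cells, 5.71 without the deepest cells and 6.61 in odd-index cells. Mesenchymal over Dorsal was 3.79 for equally weighted cells, 3.34 without the deepest, 3.86 without the highest, 5.57 in odd-index cells and 3.11 in even-index ones. Mesenchymal over Ventral was 3.70, 3.72, 4.48, 6.24 and 3.78 in the same order. Dorsal over Ventral was -0.091 with equally weighted cells. Leaving Dock10 and Cep97 out of the totals moved no fold past its counting limits.

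With 1 count as the minimum, 49.3% of Mesenchymal and 13.04% of Dorsal cells had Mecom, and without thinning 9.68% of Dorsal cells. Without wells whose i7 or i5 index is that of the highest cell, Mecom was at 106.8 CPM in HSC, 33.1 in Mesenchymal, 1.48 in Dorsal and 0.507 in Ventral cells. The alternatives that follow in this paragraph were chosen after seeing the data. Without the highest cell alone it was at 109.4 CPM in HSC, 31.5 in Mesenchymal, 1.24 in Dorsal and 0.454 in Ventral cells, and in HSC it was at 149 CPM without i7 N701 and N702 and 147 CPM without N701 alone.

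The 180 high genes of HSC stayed within 1.5 times that number under each alternative, from 139 to 255, but not all were the same genes: of the 180, 118 were high as partial correlations, 122 with thinned counts, 88 without i7 N701 and N702 and 115 without N701 alone. The 30 low genes became 69 as partial correlations, 56 with the deposited log2 values, 57 without the 5% of cells highest in Mecom, 50 with no minimum number of cells, 91 without i7 N701 and N702, 65 without N701 alone and 49 without cells under 5 counts of Ptprc. In Mesenchymal cells the 44 high genes became 22 as partial correlations, 75 with thinned counts and 74 with no minimum. The 13 low genes became 26, 40 and, without the deepest cells, 24. The 9 endothelial genes became 5 as partial correlations, 5 without the deepest cells, 5 without cells under 5 Ptprc counts, 14 without the cells highest in Mecom 4 without N701 alone and 4 without i7 N701 and N702, where the 5 matrix genes became 1. The 4 stem cell signature genes became 7 by Pearson correlation, 2 with the deposited log2 values and 8 without the cells highest in Mecom. Causes were not tested. Of 288 alternative correlations of 48 named genes, 251 moved by less than 0.1, 37 by more, and 0 changed sign. The naming rule had already required the same sign in odd-index cells, in even-index cells and as a partial correlation. No change of sign was possible in those settings. Of the others, Pearson correlation and the deposited log2 values used the same cells. Thinned counts used those of the same cells that had at least 310000 counts. No paired analysis was possible because each group is 1 sample and replicate numbers only name cells. Cells at 0 limit what Mesenchymal correlations can show.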
